A study of Mus musculus with 24 samples.

Results

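The genes described here are 40 mouse genes of glutathione conjugation and antioxidant defence: 17 glutathione transferases and 23 other genes of antioxidant and NADPH metabolism. A gene counted as measured when at least 1 probe set above the lowest 40% by mean signal carried its symbol and no other. Of several, the one with the highest mean over 24 arrays stood for the gene. By this rule 37 of the 40 were measured, among 13118 genes tested in all. These were 17 of 17 transferases and 20 of 23 others. Prdx1 was represented only by 5 probe sets shared with other genes, and no probe set was named for Prdx6 or G6pdx alone, so these 3 genes were not analysed here.

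Livers came from male BALB/c mice aged 6 weeks that ate AIN-93G, a purified rodent diet, for 14 days. The control diet held no phloridzin, and the 3 other diets held 0.1, 0.5 or 1.0% of it. Phloridzin is a plant glucoside of the dihydrochalcone phloretin and a classical inhibitor of sodium-glucose cotransport. Each diet had 6 mice, housed 3 per cage, and liver RNA was hybridised to 1-colour Affymetrix arrays, where the brightness of a probe set stands for the amount of its transcript.

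The 24 arrays did not hold 24 separate RNA samples. For 13 array pairs the log2 differences had an SD of 0.04 to 0.06, against at least 0.11 for every other pair, and such arrays were averaged as 1 RNA sample. A check on the 200 most variable genes joined a further 2 pairs of sets, which differed by no more on those genes than 1.2 times their difference on all others. RNA that carried the labels of both 0.1% (replicates 1, 3 and 6) and 1.0% (replicate 1) entered no comparison. This left 4 control samples, 3 at 0.1%, 2 at 0.5% and 2 at 1.0%. Where the values of RNA samples are listed, they run in the order of the replicate labels: control 1 and 3, 2 and 4, 5, and 6; 0.1% 2, 4, and 5; 0.5% 1, 2, 3 and 6 together, then 4 and 5; 1.0% 2, 3, 5 and 6 together, then 4. Nothing in the labels besides the replicate number ties an RNA sample to 1 mouse, so p-values measure only the spread between these samples. Of 8 measured hepatocyte markers, 7 had control means of 12.1 to 14.0 on the log2 scale, and Ass1 stood at 4.79. In whole liver, fewer cells of a type and less RNA per cell cannot be told apart.

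Glutathione transferases couple the tripeptide glutathione to electrophilic compounds, which makes them more soluble and ready for export. In liver they are abundant soluble proteins of the alpha, mu, pi and theta classes, with further mitochondrial, zeta, omega and membrane-bound forms. Many of them, together with the enzymes that make glutathione and recycle thioredoxin, are induced by the transcription factor NRF2, which its partner KEAP1 keeps at a low level in unstressed cells. Reduced glutathione and thioredoxin are regenerated with NADPH, much of which comes from the pentose phosphate pathway.

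No member passed an adjusted p of 0.05 over the 13118 genes in any comparison with control (limma, Benjamini-Hochberg). Over all genes, 0.0229% were called at 0.1%, 0.00762% at 0.5% and 0.0152% at 1.0% phloridzin. At an unadjusted p under 0.05 there were 6 of 37 members at 0.1%, 4 lower and 2 higher, where 8.47% of all genes were (3.99% lower and 4.48% higher). At 0.5% there were 7, 6 lower and 1 higher, where 5.22% of all genes were (2.71% lower and 2.52% higher). At 1.0% there were 3, 1 lower and 2 higher, where 6.49% of all genes were (4.02% lower and 2.48% higher). With 2 to 4 samples a diet, the values that follow are differences with their errors, with an unadjusted p under 0.05 used to choose those given in full. All 3 comparisons share the control samples.

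At 0.5% phloridzin 13 of the 17 transferases had a lower mean than control, and their median difference was -0.19 on the log2 scale, against 0.01 over all genes, of which 48.9% were lower. The 20 other antioxidant and NADPH genes had a median difference of 0.06, with 8 lower. At 0.1% the transferase median was 0.05, with 6 of 17 lower against 49.4% of all genes, and at 1.0% it was 0.00, with 8 of 17 lower against 54% of all genes. These medians carry no test. With arrays centred on their medians, the median of all genes moved to -0.08, -0.09 and -0.20 at the 3 doses, and with no scaling to -0.16, -0.19 and -0.35. The transferases lower at 0.5% then numbered 16 and 17 of 17, with a median relative to all genes of -0.26 and -0.26. Those lower at 0.1% became 8 and 14, and at 1.0% 13 and 15, with medians relative to all genes of 0.08 and 0.08 at 0.1% and -0.02 and -0.02 at 1.0%.

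At 0.5%, 6 of the 17 transferases were lower at p under 0.05 and none was higher. In 10 of the 17, both samples at 0.5% lay below all 4 control samples, a position that 8.69% of all genes held. At 0.1% and 1.0%, 1 transferase each had p under 0.05.

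**Figure D1:**
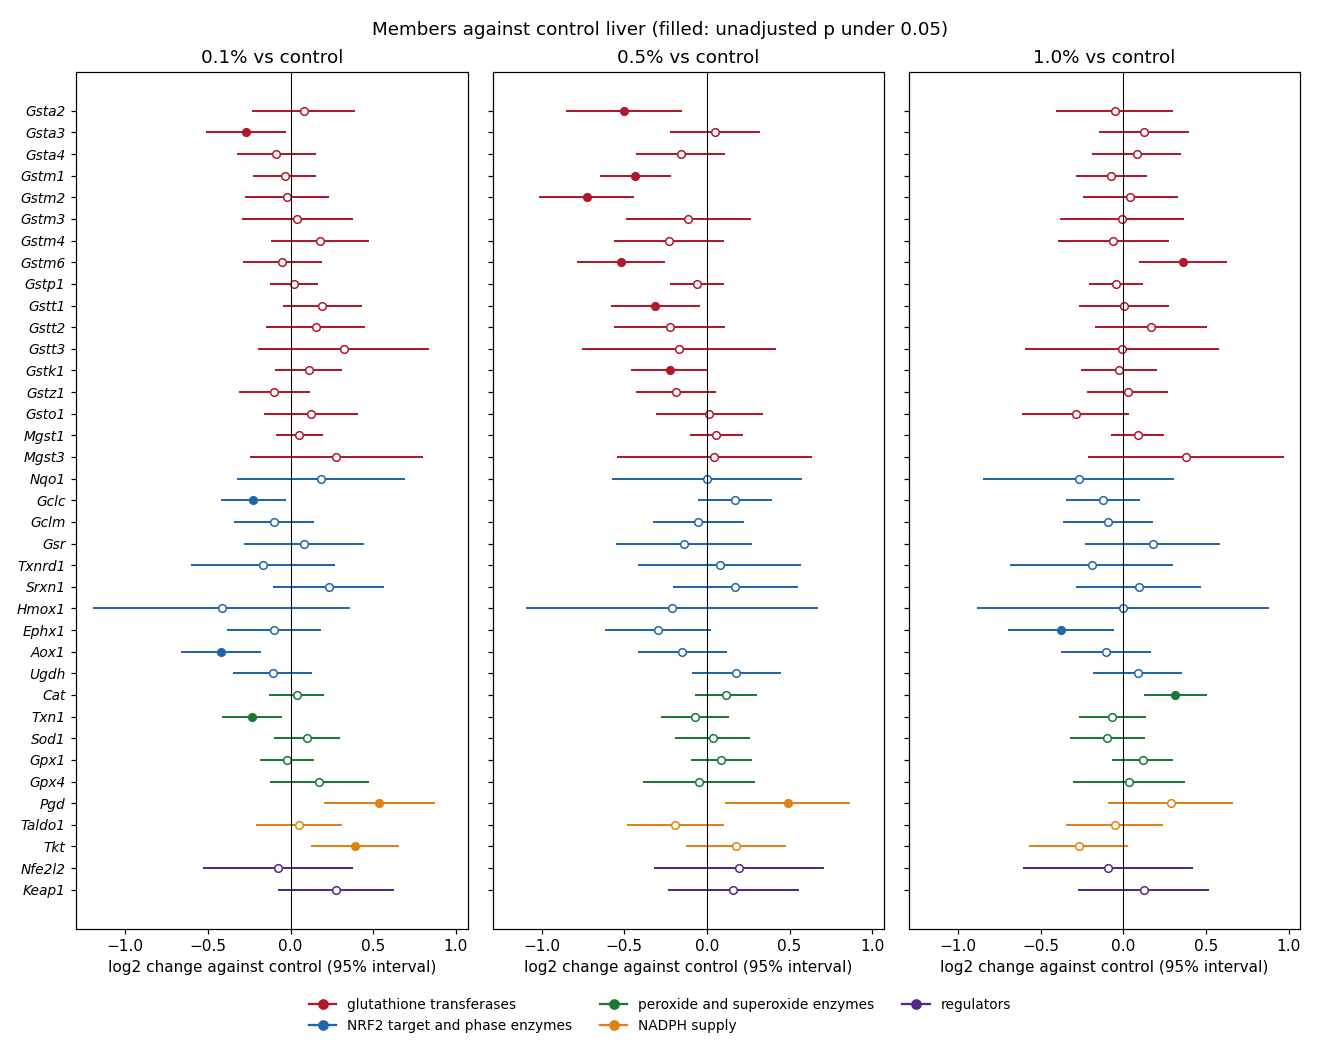
Log2 change of each of the 37 measured members against control at 0.1, 0.5 and 1.0% phloridzin (horizontal axis, log2 units), with the 95% interval of the fit as a line, coloured by role, filled where the unadjusted p was under 0.05. At 0.5% the 6 filled transferases all lie to the left of 0, from -0.73 for Gstm2 to -0.23 for Gstk1, while the filled circle to the right is Pgd at 0.49.

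The mu class had the lowest median of the classes with several members at 0.5%. All 5 measured mu members were lower than control, with a median of -0.43, and 3 of them had an unadjusted p under 0.05. The 3 theta members were also all lower, with a median of -0.23, although Gstt3 turned to 0.20 without the sample of replicates 1, 2, 3 and 6, and of the 3 alpha members Gsta2 and Gsta4 were lower while Gsta3 differed by 0.05.

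Gstm2, a mu-class transferase, gave 9.07, 8.86, 8.94 and 8.85 on the log2 scale in control, 8.87, 9.02 and 8.84 at 0.1%, 8.36 and 8.04 at 0.5%, and 9.09 and 8.86 at 1.0%. Both samples at 0.5% were below every other sample, and the other 3 diets overlapped. The mean at 0.5% was 8.20 ± 0.23 (SD, n = 2) against 8.93 ± 0.10 in control (SD, n = 4), a difference of -0.73 ± 0.13 (SE; 95% interval -1.01 to -0.45), or 1.66-fold lower. Its unadjusted p of 7.71e-05 became an adjusted p of 0.337 over all genes in limma. This call depended on the setting: the adjusted p was 0.0289 with arrays centred on their medians. It was 0.0309 with 13 samples, where only repeat hybridisations were joined. That setting counts as separate samples the array sets that the check on the most variable genes had joined. Part of the RNA at 0.5% may thus be counted more than once, and that adjusted p may be too low.

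Gstm1, a major mu-class enzyme of mouse liver, stood at 11.95, 12.03, 11.89 and 12.11 in control, 11.96, 11.98 and 11.94 at 0.1%, 11.57 and 11.55 at 0.5%, and 11.80 and 12.05 at 1.0%. The samples at 0.5% were again the lowest of all 11, and those at 1.0% lay on both sides of the lowest control. The difference at 0.5% was -0.43 ± 0.10 (SE; 95% interval -0.64 to -0.23; unadjusted p = 0.000518, adjusted p = 0.412). All 4 probe sets of Gstm1 were lower at 0.5%, by -0.27 to -0.47.

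For Gstm6, another mu-class gene, the values were 9.52, 9.58, 9.42 and 9.47 in control, 9.52, 9.28 and 9.55 at 0.1%, 9.09 and 8.87 at 0.5%, and 9.97 and 9.74 at 1.0%. The 2 samples at 0.5% lay below and the 2 at 1.0% above all the others. Against control it was lower by 0.52 at 0.5% (log2 change -0.52 ± 0.12 SE; unadjusted p = 0.000822, adjusted p = 0.415) and higher by 0.36 at 1.0% (± 0.12 SE; unadjusted p = 0.0104, adjusted p = 0.747). Between these doses it differed by 0.88 ± 0.14 (95% interval 0.58 to 1.18; unadjusted p = 2.29e-05, adjusted p = 0.275), or 1.84-fold. With arrays centred on their medians its value at 1.0% was 0.06, and with no scaling it turned to -0.10, while the median of all genes stood at -0.35. Without the 1.0% sample of replicates 2, 3, 5 and 6 the difference from control at 1.0% was 0.25.

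The mu genes lie side by side in a cluster on chromosome 3 (GRCm38.p6), in the order Gstm5, Gstm7, Gstm6, Gstm3, Gstm2, Gstm1 and Gstm4. Gstm5 and Gstm7 are not among the 40 genes but were measured. At 0.5% all 7 genes of the row had a negative log2 difference from control: -0.30, -0.20, -0.52, -0.11, -0.73, -0.43 and -0.23. All 7 were also lower with arrays centred on their medians and with no scaling, where the median of the 7 relative to all genes was -0.35 and -0.35. For Gstm5 and Gstm7 this sign rested on the sample of replicates 4 and 5, which read 7.38 and 7.70, while the other sample at 0.5% read 8.10 and 8.34, above the control means of 8.04 and 8.22. Without replicates 4 and 5 their differences turned to 0.06 and 0.12, and the 5 members kept their sign without either sample. At 0.1% the same genes ranged from -0.05 for Gstm6 to 0.42 for Gstm7, and at 1.0% from -0.09 for Gstm5 to 0.36 for Gstm6. Mu genes share long stretches of sequence, and the probe sets of Gstm1 and Gstm3 used here are of a type that can bind related transcripts, so signal cannot be divided with certainty among neighbours.

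Beyond the mu class, Gsta2, an alpha-class enzyme, gave 8.41, 8.18, 8.57 and 8.48 in control, 8.61, 8.31 and 8.55 at 0.1%, 7.66 and 8.16 at 0.5%, and 8.29 and 8.43 at 1.0%. The sample of 0.5% replicates 1, 2, 3 and 6 was by far the lowest, and that of replicates 4 and 5 lay just under the lowest control. The difference was -0.50 ± 0.16 (unadjusted p = 0.00787, adjusted p = 0.693) and -0.26 without the former sample. Gsta1 is nearly identical in sequence and could share this signal.

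Gstt1, a theta-class enzyme that also acts on small halogenated compounds, stood at 10.58, 10.84, 10.76 and 10.96 in control, 10.85, 10.99 and 11.09 at 0.1%, 10.51 and 10.44 at 0.5%, and 10.93 and 10.65 at 1.0%. The 0.5% samples were the lowest of all, with the nearest control close above them. The log2 difference from control was -0.31 ± 0.12 (unadjusted p = 0.0236, adjusted p = 0.842). Against 0.1% phloridzin the log2 difference was -0.50 ± 0.13 (unadjusted p = 0.00165, adjusted p = 0.280). It uses the same samples at 0.5% and no control values. Its error and p come from the fit of all diets, control included.

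Gstk1, the kappa-class enzyme of mitochondria and peroxisomes, read 9.68, 9.72, 9.67 and 9.82 in control, 9.72, 9.93 and 9.85 at 0.1%, 9.55 and 9.44 at 0.5%, and 9.74 and 9.66 at 1.0%. Both 0.5% samples were below all the others. Its difference of -0.23 ± 0.10 had an unadjusted p of 0.0483 and an adjusted p of 0.950, and the unadjusted p was above 0.05 when any 1 control or any 1 sample at 0.5% or 1.0% was left out.

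**Figure D2:**
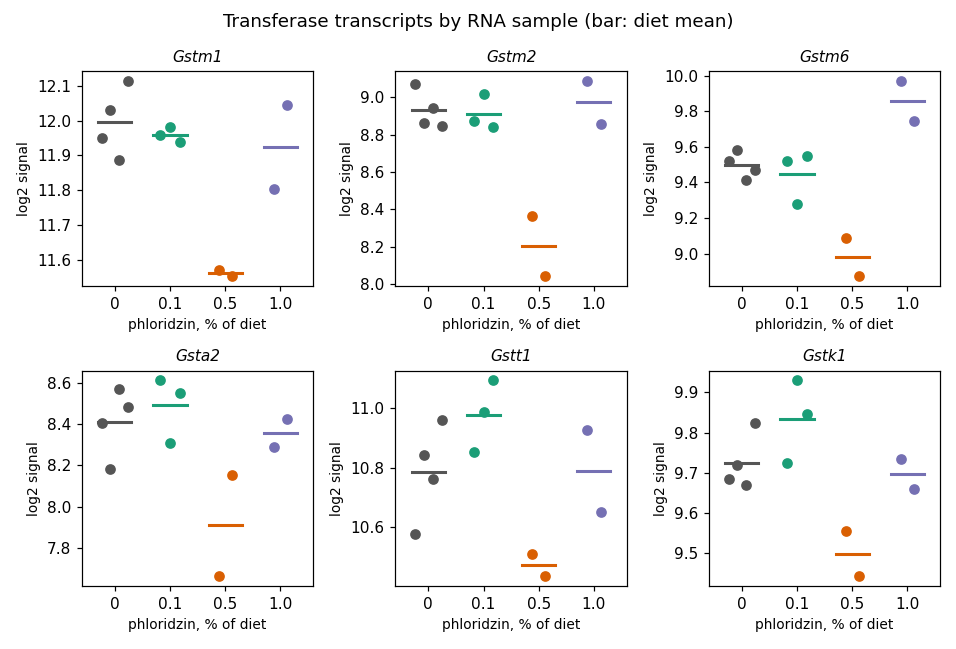
Log2 signal (vertical axis) of the 6 transferases with an unadjusted p under 0.05 at 0.5%, by percent of phloridzin in the diet (horizontal axis), 1 point for each RNA sample and a bar at the diet mean, with a separate vertical scale for each gene. In each panel the 2 points at 0.5% lie below all 4 control points, and for Gstm6 the 2 points at 1.0% lie above them.

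The other transferases were given by their class. Gstt2 and Gstt3, also of the theta class, differed at 0.5% by -0.23 ± 0.15 and -0.17, and at 0.1% by 0.15 and 0.32. Gstz1, the zeta-class enzyme that doubles as maleylacetoacetate isomerase in tyrosine breakdown, differed by -0.19 ± 0.11 at 0.5%. Gsto1, the omega-class enzyme, differed by -0.29 at 1.0%, and its slope on the percent of phloridzin was -0.31 ± 0.14 (log2 per percent of the diet; unadjusted p = 0.0451, adjusted p = 0.550), with 5.43% of all genes at a negative slope of that p. Gsta4, which acts on the lipid peroxidation product 4-hydroxynonenal, ranged over the 3 diets from -0.16 to 0.08. The membrane-bound Mgst3 had differences of 0.28, 0.05 and 0.38 at the 3 doses and wide intervals, from -0.21 to 0.96 at 1.0%.

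Gstp1, the pi-class transferase that is abundant in male mouse liver, stood at 13.54, 13.56, 13.55 and 13.54 in control, 13.56, 13.53 and 13.61 at 0.1%, 13.44 and 13.53 at 0.5%, and 13.48 and 13.53 at 1.0%. The 0.1% samples overlapped with control, while the higher sample at 0.5% and that at 1.0% lay just under the lowest control. The differences from control were 0.02, -0.06 and -0.04, with unadjusted p of 0.761, 0.413 and 0.557. This transcript and Mgst1, at 13.49 in control, lie at the top of the signal range, where quantile normalization ties the values of all arrays to 1 narrow range, so their small spread says little about small differences. With no scaling the value of Gstp1 was -0.08 at 0.1%, and with arrays centred on their medians it was 0.08 at 1.0%, so that its direction at these doses depended on the scaling. Gstp2 is a close copy and could share the signal.

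Promoter sequences are shown for Gstm2 and Gstm1, which had the lowest unadjusted p at 0.5%. Beside them stand Gsta3 and Gclm, 2 members known as NRF2 targets that were picked because they carry the motif. RefSeq (GRCm38.p6) gave start sites for 34 of the 40 members, and the 250 bases before each were searched on both strands for TGACNNNGC, the core of the antioxidant response element to which NRF2 binds; N is any base. The matched bases are in capitals, and the match of Gclm is to the opposite strand. For Gstm1, which has several start sites, 1 window is shown.
Gstm2, chr3:107986421-107986670, minus strand: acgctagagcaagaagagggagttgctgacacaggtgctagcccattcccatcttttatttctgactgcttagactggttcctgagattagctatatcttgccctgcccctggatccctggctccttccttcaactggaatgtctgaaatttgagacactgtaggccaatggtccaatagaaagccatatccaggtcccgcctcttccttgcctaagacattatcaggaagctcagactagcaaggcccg
Gstm1, chr3:108017819-108018068, minus strand: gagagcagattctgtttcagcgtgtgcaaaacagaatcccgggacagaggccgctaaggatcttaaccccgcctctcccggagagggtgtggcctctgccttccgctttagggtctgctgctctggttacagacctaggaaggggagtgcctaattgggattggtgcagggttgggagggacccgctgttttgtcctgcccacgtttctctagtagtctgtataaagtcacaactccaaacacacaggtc
Gsta3, chr1:21240335-21240584, plus strand: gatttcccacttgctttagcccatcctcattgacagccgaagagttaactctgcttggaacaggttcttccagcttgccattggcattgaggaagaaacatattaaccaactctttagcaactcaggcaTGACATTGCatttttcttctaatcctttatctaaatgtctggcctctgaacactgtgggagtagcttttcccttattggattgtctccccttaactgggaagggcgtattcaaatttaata
Gclm, chr3:122245307-122245556, plus strand: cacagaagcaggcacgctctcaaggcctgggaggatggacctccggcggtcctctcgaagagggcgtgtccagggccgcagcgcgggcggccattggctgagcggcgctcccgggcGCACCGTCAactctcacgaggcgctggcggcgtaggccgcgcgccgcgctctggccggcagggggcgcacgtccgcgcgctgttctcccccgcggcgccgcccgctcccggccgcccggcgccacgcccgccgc
The core was found before 9 of the 34 genes (26.5%), against 11.5% of 26994 genes of the same table. Those 9 genes were G6pdx, Gclm, Gsta3, Mgst1, Nfe2l2, Prdx1, Sod1, Txnrd1 and Ugdh, of which 2 are transferases (13.3% of 15) and 7 are not (36.8% of 19). A short core is matched often, so a match is a description of these letters and no match says only that they are not in the window. Nqo1, often read as a marker of NRF2 activity, also had no match. The motif therefore does not tell NRF2 targets from other genes here, and the 2 pairs shown are no contrast of that kind. None of the 7 measured genes with the core had an unadjusted p under 0.05 at 0.5% phloridzin, where 5.22% of all genes had. At that share, a count among so few genes says little. Their largest difference was 0.19 for Nfe2l2.

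Enzymes induced by NRF2 and other phase 1 and 2 enzymes showed no common direction at 0.5%, where 5 of 10 were lower and the median was -0.03. At 0.1 and 1.0%, 7 of 10 were lower, with medians of -0.10 and -0.10. Nqo1, the quinone reductase most often read as a marker of NRF2 activity, was dim, at 4.48, 4.23, 5.03 and 4.68 in control, 4.86, 4.53 and 4.98 at 0.1%, 4.42 and 4.79 at 0.5%, and 4.37 and 4.30 at 1.0%. Each phloridzin diet overlapped with control, while both samples at 1.0% lay below all samples at 0.1 and 0.5%. Its differences from control were 0.19, 0.00 and -0.27, with a 95% interval of -0.57 to 0.57 at 0.5%, and the value at 0.5% had no settled sign over the alternatives (-0.19 to 0.19).

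Gclc, the catalytic subunit of the enzyme that limits glutathione synthesis, stood at 10.88, 10.92, 10.77 and 10.71 in control, 10.61, 10.51 and 10.67 at 0.1%, 11.07 and 10.92 at 0.5%, and 10.65 and 10.75 at 1.0%. All samples at 0.1% were below all controls, which 3.74% of all genes were. The difference at 0.1% was -0.23 ± 0.09 (unadjusted p = 0.0241, adjusted p = 0.543), and a second probe set gave -0.30. Between 0.5 and 0.1% Gclc differed by 0.39 ± 0.11 (unadjusted p = 0.00235, adjusted p = 0.312), the opposite order to that of Gstm1 and Gstm2. With arrays centred on their medians and with no scaling the difference of Gclc from control at 0.5% turned from 0.17 to -0.02 and -0.12. Its regulatory partner Gclm differed from control by -0.10, -0.05 and -0.09 at the 3 doses, while its second probe set gave -0.46, 0.20 and -0.09, so that its direction at 0.5% depended on the probe set.

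Aox1, an aldehyde and heterocycle oxidase of hepatocytes, had the lowest unadjusted p of the members at 0.1%. It gave 9.70, 9.52, 9.59 and 9.55 in control, 9.21, 9.02 and 9.28 at 0.1%, 9.31 and 9.57 at 0.5%, and 9.37 and 9.60 at 1.0%. The 3 samples at 0.1% lay below all controls and below all samples at the higher doses. The difference was -0.42 ± 0.11 (SE; 95% interval -0.65 to -0.19; unadjusted p = 0.00173, adjusted p = 0.477), or 1.34-fold lower. It kept its sign in all 26 other settings, from -0.79 to -0.35.

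Ephx1, the microsomal epoxide hydrolase, read 10.98, 10.68, 10.97 and 10.84 in control, 10.73, 10.54 and 11.04 at 0.1%, 10.38 and 10.77 at 0.5%, and 10.46 and 10.52 at 1.0%. Only at 1.0% were both samples below all controls, as 12.4% of all genes were. The difference there was -0.38 ± 0.15 (unadjusted p = 0.0232, adjusted p = 0.758 in limma). It was -0.67 with arrays centred on their medians and -0.83 with no scaling, where the medians of all genes stood at -0.20 and -0.35. The slope was -0.38 ± 0.13 per percent of the diet (unadjusted p = 0.0118, adjusted p = 0.464).

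Hmox1, the haem oxygenase, stood at 3.82 in 0.1% replicate 4 and between 4.64 and 5.65 in the other 10 samples. At the probe sets used, Gsr, Txnrd1 and Srxn1, which reduce glutathione disulphide, thioredoxin and oxidised peroxiredoxin, had differences from -0.19 to 0.23 over the 3 doses. A second probe set of Gsr gave -0.22, 0.13 and 0.10, so its direction at 0.1 and 0.5% depended on the probe set. Dimmer probe sets spread more widely, from -0.64 to 0.22 for Txnrd1 and from -0.16 to 1.22 for Srxn1, with some values at the floor of 3.00. Ugdh, which makes the UDP-glucuronic acid used in glucuronidation, ranged from -0.11 to 0.18.

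Of the peroxide and superoxide enzymes, catalase was the member with the lowest unadjusted p at 1.0%. Cat stood at 12.94, 12.89, 12.76 and 12.82 in control, 12.84, 12.97 and 12.86 at 0.1%, 12.90 and 13.04 at 0.5%, and 13.16 and 13.17 at 1.0%. Both samples at 1.0% were above all the other 9, a position above control that 8.23% of all genes held. The difference was 0.31 ± 0.09 (SE; 95% interval 0.13 to 0.50; unadjusted p = 0.00248, adjusted p = 0.626), and the second probe set of Cat gave 0.21. With no scaling it was 0.15 (unadjusted p = 0.352 in limma), while the median of all genes stood at -0.35. Its slope of 0.30 ± 0.08 per percent of the diet was the clearest of the members (unadjusted p = 0.00146, adjusted p = 0.442), where 3.4% of all genes had a positive slope at p under 0.05.

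Txn1, the cytosolic thioredoxin, gave 11.53, 11.58, 11.42 and 11.43 in control, 11.30, 11.33 and 11.14 at 0.1%, 11.43 and 11.40 at 0.5%, and 11.40 and 11.44 at 1.0%. The 3 samples at 0.1% lay below all others. The difference was -0.23 ± 0.08 (unadjusted p = 0.0128, adjusted p = 0.508). A second, dim probe set gave 0.17. At the probe sets used, Gpx1, Gpx4 and Sod1, the main selenium peroxidases and the cytosolic superoxide dismutase, differed by -0.10 to 0.17 over all doses. A second probe set of Gpx4 gave 0.32, 0.19 and -0.20, so its direction at 0.5 and 1.0% depended on the probe set. A second bright probe set of Sod1 gave 0.28, 0.03 and 0.01, and its dimmer ones ranged from -0.07 to 0.51.

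The enzymes of the pentose phosphate pathway that supply NADPH or act next to it had higher means than control at 0.1%. Pgd, the second NADPH-producing enzyme of the pathway, gave 8.04, 8.63, 8.26 and 8.55 in control, 8.63, 9.12 and 8.96 at 0.1%, 8.85 and 8.87 at 0.5%, and 8.58 and 8.73 at 1.0%. The lowest sample at 0.1% touched the highest control to 2 decimals, and the 0.5% samples lay above all controls. The differences were 0.54 ± 0.15 at 0.1% (unadjusted p = 0.00367, adjusted p = 0.488) and 0.49 ± 0.17 at 0.5% (unadjusted p = 0.0142, adjusted p = 0.744). The probe set used for Pgd and 2 others are of a type that can bind related transcripts. The single other probe set gave 0.17 at 0.1% and -0.20 at 0.5%, so the direction at 0.5% depended on the probe set. With no scaling the differences of Pgd were 0.35 and 0.22, neither at an unadjusted p under 0.05.

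Tkt, the transketolase of the non-oxidative arm, stood at 10.77, 11.16, 10.91 and 11.12 in control, 11.26, 11.56 and 11.31 at 0.1%, 11.05 and 11.28 at 0.5%, and 10.58 and 10.86 at 1.0%. All samples at 0.1% were above all controls, as 4.13% of all genes were, and both at 1.0% were below every sample at the other phloridzin doses. Against control the difference at 0.1% was 0.39 ± 0.12 (unadjusted p = 0.00642, adjusted p = 0.488), and a second probe set gave 0.36. With no scaling the difference at 0.1% was 0.22 (unadjusted p = 0.288 in limma), with the median of all genes at -0.16. Between 1.0 and 0.1% it was -0.66 ± 0.14 (unadjusted p = 0.000462, adjusted p = 0.173), in a comparison where 0.0152% of all genes, Tkt not among them, were called. Taldo1, the transaldolase, differed from control by 0.05, -0.19 and -0.05.

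**Figure D3:**
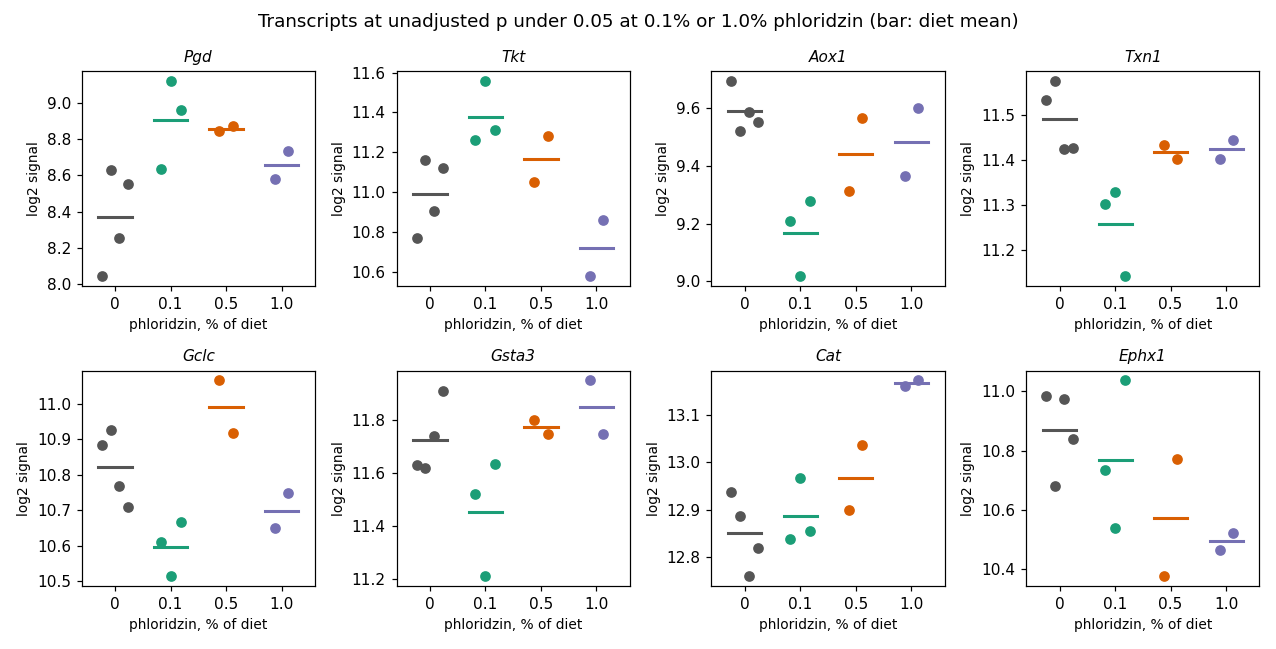
Log2 signal (vertical axis) of the 8 members drawn for their values at 0.1 or 1.0% phloridzin, by percent of phloridzin in the diet (horizontal axis), 1 point for each RNA sample and a bar at the diet mean, with a separate vertical scale for each gene. The 3 points at 0.1% lie below all control points for Aox1, Txn1 and Gclc and above them for Tkt, and the 2 points at 1.0% lie above them for Cat and below them for Ephx1.

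Gsta3 was the 1 transferase at an unadjusted p under 0.05 at 0.1%. It read 11.63, 11.62, 11.74 and 11.91 in control, 11.52, 11.21 and 11.63 at 0.1%, 11.80 and 11.75 at 0.5%, and 11.95 and 11.75 at 1.0%. The samples at 0.1% overlapped with control and lay below all samples at the 2 higher doses, with 0.1% replicate 4 the lowest of all. The difference was -0.27 ± 0.11 (unadjusted p = 0.0273, adjusted p = 0.551) and -0.15 without that sample, and the second probe set of Gsta3 gave 0.12.

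The regulators themselves showed wide spreads. Nfe2l2, which encodes NRF2, stood at 9.20, 8.82, 8.61 and 8.48 in control, 8.98, 8.93 and 8.19 at 0.1%, 8.84 and 9.11 at 0.5%, and 8.44 and 8.93 at 1.0%. Every diet overlapped with control, and the differences were -0.08, 0.19 and -0.09 (unadjusted p of 0.717, 0.426 and 0.698). Keap1 gave 6.94, 6.95, 7.03 and 6.89 in control, 6.97, 7.17 and 7.53 at 0.1%, 7.10 and 7.12 at 0.5%, and 7.33 and 6.81 at 1.0%. Its samples at 0.5% lay just above all controls, as 9.16% of all genes did, while those at 0.1 and 1.0% overlapped with control. Its differences were 0.27 ± 0.16, 0.16 ± 0.18 and 0.12 ± 0.18, and a second, dim probe set gave negative values at all 3 doses. The sign of these small differences turned under 1 or more alternatives for both genes at every dose. NRF2 is controlled mainly as a protein, which these arrays do not measure.

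Differences between the phloridzin diets use no control values, but their errors and p-values rest on the spread within all diets, control included. In the comparison of 0.5 with 0.1%, 11 members had an unadjusted p under 0.05. Of these 8 were lower at 0.5%, where 5.41% of all genes were, and 3 were higher, where 5.31% were. The 8 lower ones were all transferases, led by Gstm2 (-0.71 ± 0.14, adjusted p = 0.186 in limma), Gstm1 (-0.40 ± 0.10) and Gstt1, and also held Gstm6, Gsta2, Gstk1, Gstm4 and Gstt2. The 3 higher ones were Gclc, Gsta3 and Ugdh. For Gsta3 this rested on the probe set used, which differed from control by -0.27 at 0.1% and 0.05 at 0.5%. Its second probe set gave 0.12 and 0.09.

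Comparing 1.0 with 0.1%, 2 members were lower (Tkt and Gsto1) at an unadjusted p under 0.05 and 4 were higher (Gstm6, Cat, Gsta3 and Aox1), where 7.3 and 4.89% of all genes were. The second probe set of Gsta3 differed from control by 0.12 at 0.1% and -0.07 at 1.0%, so its direction here depended on the probe set. Gsto1 differed from control at these doses by 0.12 and -0.29 at the probe set used and by -0.08 and -0.18 at its second. Comparing 1.0 with 0.5%, 2 were lower (Tkt and Gclc) and 6 were higher, all of them transferases: Gstm6, Gstm2, Gstm1, Gsta2, Gstt1 and Gstt2. The shares of all genes there were 2.6 and 1.61%. At its second probe set Tkt differed from control by 0.04 at 0.5% and -0.004 at 1.0%, against 0.18 and -0.27 at the one used. Gstm2 was higher at 1.0 than at 0.5% by 0.77 ± 0.15 (adjusted p = 0.494 in limma) and Gstm1 by 0.36 ± 0.11 (adjusted p = 0.989 in limma). No member passed an adjusted p of 0.05 in these 3 comparisons, each pair of which shares the samples of 1 diet.

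Over all diets, the F-test of limma gave 11 members an unadjusted p under 0.05, as it did 9.25% of all genes. Gstm6 and Gstm2 had the lowest values, both with an adjusted p of 0.248 in limma, where 0.0152% of all genes were called. A slope on the percent of phloridzin at an unadjusted p under 0.05 was found for 3 members, Cat, Ephx1 and Gsto1, and for 8.83% of all genes.

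Other genes of the same pathways were read from a list of 89, of which 75 were measured. At 0.5%, 55 of the 75 were lower (73.3%, against 48.9% of all genes), with a median of -0.11. Both samples at 0.5% lay below all controls in 18 of the 75 and above them in 4, where 8.69 and 9.16% of all genes did. A lower position at 0.5% was thus not confined to the transferases. At 1.0% these counts were 15 and 4, where 12.4 and 8.23% of all genes lay so. At an unadjusted p under 0.05 in either direction there were 6 at 0.5% (8% against 5.22% of all genes), 8 at 0.1% (10.7% against 8.47%) and 8 at 1.0% (10.7% against 6.49%). Most of them were lower. At 0.5%, 5 of the 75 were lower and 1 higher, where 2.71 and 2.52% of all genes were. The lower ones included Msrb1, a methionine sulphoxide reductase (-0.46 ± 0.13, and -0.21 without replicates 4 and 5), Cth, which makes cysteine for glutathione (-0.34 ± 0.10), and Akr1a1, an aldehyde reductase (-0.23 ± 0.09). At 0.1%, 7 were lower and 1, Gstm7, was higher, where 3.99 and 4.48% of all genes were. Among the lower ones were Cth (-0.28 ± 0.09) and Txnip, the thioredoxin inhibitor (-0.46 ± 0.15). At 1.0% all 8 were lower, where 4.02% of all genes were. Among them were H6pd, the microsomal glucose-6-phosphate dehydrogenase (-0.46 ± 0.15), and Ephx2, the soluble epoxide hydrolase (-0.29 ± 0.10). The lowest adjusted p in these 3 comparisons was 0.488.

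Marker and state lists also differed from control in some of these samples. For each list, a score was taken in every sample as the median of its members relative to the control mean. At 0.5% the transferase score was -0.24 in the sample of replicates 1, 2, 3 and 6 and -0.19 in that of replicates 4 and 5, against -0.04 to 0.10 in control, and the mu class score was -0.41 and -0.44. The acute phase score of 11 genes was 1.98 and 0.56 in these samples, against -0.11 to 0.07 in control. The clock output score of 6 genes was -1.60 and 0.25, against -0.27 to 0.28, and the neutrophil score of 7 measured markers was 0.06 and 0.91, against -0.29 to 0.09. The pericentral hepatocyte score of 11 genes was -0.13 and -0.19, against -0.04 to 0.05 in control, and 9 of the 11 were lower. The periportal score of 8 measured genes was -0.13 and -0.11, against -0.06 to 0.04. The cholangiocyte score of 3 measured markers, all dim, was 0.50 and 0.71, against -0.37 to 0.28. Among the RNA quality controls of the array, the signal of Gapdh at the 3′ minus the 5′ end was -0.18 and -0.18 log2 units, against -0.37 to -0.28 in control, so both samples lay above the control range. That of actin was 1.49 and 1.78, against 1.31 to 1.54, and only replicates 4 and 5 lay above it. The part of these differences in the transferase values was not tested.

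At 0.1%, replicate 4 had a Kupffer cell score of -0.41 and a sinusoidal endothelial score of -0.46, against -0.06 to 0.09 and -0.04 to 0.08 in control. Its actin signal was 2.32 log2 units higher at the 3′ than at the 5′ end, against 1.31 to 1.54 in control, a difference that grows as RNA is degraded. Without that sample the difference at 0.1% was as follows for the members named there: Aox1 -0.35, Pgd 0.43, Tkt 0.30, Txn1 -0.27 and Gclc -0.18. The part of RNA quality and cell make-up in the values with that sample was not tested.

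**Figure D4:**
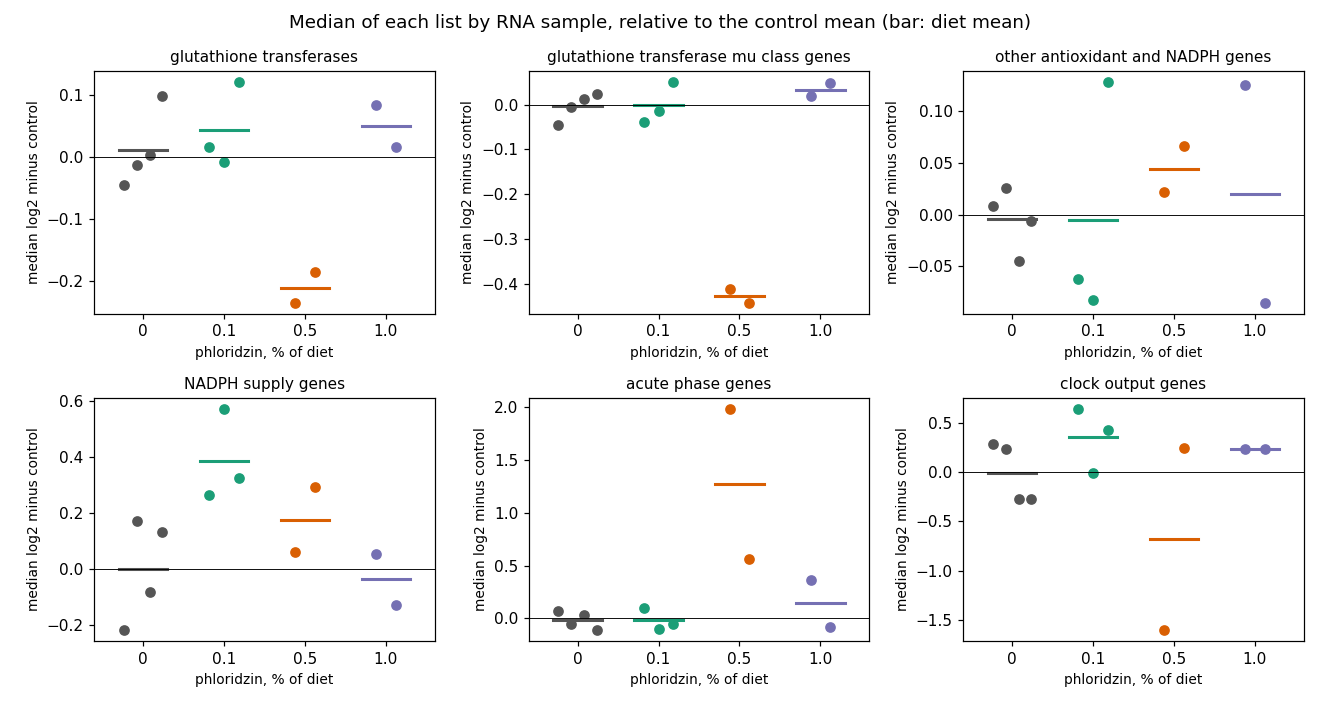
Median log2 value of each of 6 gene lists relative to the control mean (vertical axis), by percent of phloridzin in the diet (horizontal axis), 1 point for each RNA sample and a bar at the diet mean, with a separate vertical scale for each list. Both 0.5% points lie below all controls for the transferases (-0.24 and -0.19) and the mu class (-0.41 and -0.44), while for acute phase genes they lie at 1.98 and 0.56 and for clock output genes at -1.60 and 0.25.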

How the data were processed

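Liver RNA was measured on 24 one-colour Affymetrix arrays, and the authors deposited linear intensity values of 45101 probe sets per array. How they summarised probes, corrected background or scaled is not given in the sources used here. Array medians ran from 9.49 to 18.0, the absolute scale is unknown, and the number of arrays limits the precision. Probe sets were named from the platform annotation in GEO (34945 with 1 gene, 932 with several).

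Intensities were quantile-normalized, floored at 8 and taken to log2, so that 3.00 is the floor (5.4% of tested values), and folds of dim transcripts are understated. Probe sets in the lowest 40% by mean signal were dropped. Arrays were joined to RNA samples where the SD of the log2 difference over 1463 genes was under 0.08, or by the 200-gene check. Quantile normalization was chosen since deposited scales differ.

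Diets were compared in limma 3.58.1 (R 4.3.3; lmFit, eBayes with trend) in 1 fit with 7 residual degrees of freedom, two-sided, with Benjamini-Hochberg adjustment over 13118 genes. In simulated data with changes set at 0.5% phloridzin, it called 0 of 200 genes with a true log2 change of 0.5. At true changes of 1 and 2 it called 81 and 177 of 200. The lack of called members therefore says little about differences of the size seen here. Members, lists and tests were chosen with earlier results of these data known. Named in full were members at unadjusted p under 0.05, and Nqo1, Gstp1, Gclc, Nfe2l2 and Keap1. Of other pathway genes, up to 4 per comparison were named by lowest p. Alternatives covered scaling, floor, filter, probe sets, joining, the fit and left-out samples. Figures were drawn with matplotlib 3.10.9. Promoters came from RefSeq GRCm38.p6.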

Additional observations from a re-analysis of the deposited data

Results flagged for a closer look

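The RNA that carried the labels of both 0.1% and 1.0% phloridzin entered no comparison of diets, and in it 13 of the 37 measured members lay above the control range and 13 below. The share of all genes in these positions was not taken, so the counts show nothing particular to the members. Among the members above, 4 exceeded the highest control by more than 0.3 on the log2 scale. Keap1 stood at 7.47 in this RNA, against 7.03 in the highest control. Gpx4, the phospholipid peroxidase, stood at 11.6 against 11.0. Gstm4 was at 8.82 against 8.48, and Mgst3 at 6.61 against 6.24. Aox1 lay below the control range at 8.46, against 9.52 in the lowest control, and Gsta3 at 10.99 against 11.62. Since its diet label is double, these values were set beside control only and were not read as those of 1 phloridzin diet. In the 4 control samples, no value of 43 (members and list scores) lay apart from the rest by Dixon's test, where chance alone would give about 1 in 20.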

How the results depend on the processing

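Gstm2, Gstm1 and Gstm6 were lower at 0.5% than control, and Aox1 lower at 0.1%, with an unadjusted p under 0.05 in all 26 alternatives (15 settings and 11 runs that each left out 1 RNA sample). Of the 30 differences of members followed over these alternatives, 12 turned in sign at least once. Of these, 2 had an unadjusted p under 0.05: Pgd at 0.5%, which turned to -0.20 with probe sets of type x or s left out, and Gstm6 at 1.0%, which turned to -0.10 with no scaling. The others were Nqo1 and Gclc at 0.5%, Gstp1 at 0.1 and 1.0%, and Nfe2l2 and Keap1 at all 3 doses.

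With arrays centred on their medians, the transferase median was -0.35 at 0.5% and -0.21 at 1.0%. The median of the other antioxidant and NADPH genes was -0.051, -0.048 and -0.30 at the 3 doses. At 0.5%, 1 member (Gstm2) was called among 3 of 13120 genes. An unadjusted p under 0.05 was found for 11 members at 0.5% and 12 at 1.0%, where the medians of all genes were -0.09 and -0.20. With no scaling the transferase medians were -0.079, -0.45 and -0.37, and those of the others -0.13, -0.15 and -0.46. In that setting 14 members had an unadjusted p under 0.05 at 1.0%, where the median of all genes was -0.35. The median of the others was -0.036 at 0.1% with all probe sets of a gene averaged, and -0.029, 0.014 and -0.029 without x or s probe sets. With 13 samples joined from repeats alone it was 0.0019 at 0.5% and -0.022 at 1.0%, 1 member (Gstm2) was called at 0.5%, and 11 and 5 had an unadjusted p under 0.05 at these doses. At 0.5%, 18 of 13118 genes were called in that setting. It may count the same RNA more than once at both doses, so its p-values may be too low. With the RNA of 2 diets under both labels the median of the others was 0.0019 and -0.0100. eBayes without trend gave 3 members at an unadjusted p under 0.05 at 0.1%.

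Taking all 24 arrays as separate samples, which they are not, gave 13, 7 and 3 members called. Of 13118 genes, 2632, 448 and 402 were then called. Members at an unadjusted p under 0.05 numbered 17, 16 and 16, and the medians of the others were 0.015 at 0.5% and 0.0095 at 1.0%. With the replicate block, 13, 7 and 1 members and 2726, 433 and 348 of all genes were called. Members at that p then numbered 16, 16 and 17, and the medians were 0.015 and 0.0095. The share of all genes at an unadjusted p under 0.05 was not taken in the alternative settings. Replicate numbers did not pair the samples: deviations of same-numbered arrays of different diets had a median correlation of -0.00 over 36 pairs, from -0.15 to 0.42.

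Leaving out 1 RNA sample at a time gave transferase medians of 0.011 to 0.10 at 0.1%, -0.24 to -0.18 at 0.5% and -0.041 to 0.085 at 1.0%. The median of the others ran from -0.042 to 0.047, from 0.022 to 0.070 and from -0.10 to 0.13. Members at an unadjusted p under 0.05 numbered 5 to 7, 3 to 9 and 2 to 5, and 0 were called. The lowest count at 0.5% came without the sample of replicates 1, 2, 3 and 6, and the highest at 1.0% without replicate 4. The cause of these shifts was not tested. The 2 samples at 0.5% and at 1.0% limit what any of these comparisons can resolve.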
